A study of Mus musculus with 3 samples.

Results

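The cation-chloride cotransporters and the kinases that control them were described in hippocampus through 9 genes chosen by symbol: the cotransporter genes Slc12a2, Slc12a4, Slc12a5, Slc12a7 and Slc12a9, and the kinase genes Wnk1, Wnk2, Wnk3 and Stk39. All 9 were found, each as 1 row, among the 39377 rows of the deposited table. The tissue was hippocampus of wild-type (WT) C57BL/6 mice at postnatal day 14, taken whole and therefore holding many cell types, and total RNA was sequenced in paired reads of 150 bases. There was 1 group of 3 libraries, called libraries 1, 2 and 3, with no treatment, mutant or second age, and the labels do not say whether they came from separate animals. The p-values below therefore measure only the spread between these 3 libraries, which may be technical.

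Cation-chloride cotransporters move chloride across the cell membrane together with potassium or sodium. NKCC1, the product of Slc12a2, brings chloride in, and K-Cl cotransporters such as KCC1 (Slc12a4), KCC2 (Slc12a5) and KCC4 (Slc12a7) take it out. In developing neurons the balance between NKCC1 and KCC2 sets the chloride gradient and hence whether GABA depolarises or hyperpolarises a cell. WNK kinases, which lack the usual catalytic lysine, activate the kinases SPAK (Stk39) and OSR1 (Oxsr1), and these phosphorylate the cotransporters, which activates NKCC1 and inhibits the KCCs.

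RefSeq start-site windows (250 bases before an annotated start, GRCm38.p6) were matched for 8 of the 9 genes, Slc12a2 being the other one, and gave 10 windows. Slc12a5 has a pair of annotated starts that open the KCC2a and KCC2b transcripts, and its deposited value is 1 number for the whole gene. The windows of Slc12a5 are shown because it had the highest level of the 9, with those of Wnk1 and Wnk3, the highest and the lowest kinase gene. Each is printed 5′ to 3′ on the gene's strand, without bases that lie in an annotated exon of the gene. Capitals mark matches, on either strand, to the E-box CACGTG, the GC box GGGCGG, the Egr motif GCGNGGGCG or TATAAA.
Slc12a5 upstream start, chr2:164960596-164960801, plus strand: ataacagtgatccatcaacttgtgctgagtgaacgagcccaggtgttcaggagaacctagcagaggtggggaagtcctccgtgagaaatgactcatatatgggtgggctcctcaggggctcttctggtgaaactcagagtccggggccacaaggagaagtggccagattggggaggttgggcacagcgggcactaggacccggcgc
Slc12a5 downstream start, chr2:164967738-164967982, plus strand: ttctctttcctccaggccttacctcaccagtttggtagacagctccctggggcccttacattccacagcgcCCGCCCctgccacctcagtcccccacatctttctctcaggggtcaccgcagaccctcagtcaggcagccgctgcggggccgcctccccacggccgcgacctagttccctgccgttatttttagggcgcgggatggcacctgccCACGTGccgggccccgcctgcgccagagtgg
Wnk1, chr6:120038673-120038905, minus strand: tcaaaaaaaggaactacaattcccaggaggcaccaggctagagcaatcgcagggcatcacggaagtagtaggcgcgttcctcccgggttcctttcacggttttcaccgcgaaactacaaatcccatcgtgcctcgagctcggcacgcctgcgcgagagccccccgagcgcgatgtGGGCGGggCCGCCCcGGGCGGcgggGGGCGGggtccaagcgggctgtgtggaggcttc
Wnk3, chrX:151197828-151198077, plus strand: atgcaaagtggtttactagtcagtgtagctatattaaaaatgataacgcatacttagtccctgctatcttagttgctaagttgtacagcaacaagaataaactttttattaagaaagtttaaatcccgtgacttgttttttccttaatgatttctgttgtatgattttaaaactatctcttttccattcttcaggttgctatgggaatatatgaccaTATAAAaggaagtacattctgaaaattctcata

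The downstream Slc12a5 window held an E-box 36 bases before the start and a GC box 179 bases before it, and the upstream window held none of the motifs. An E-box was present in 6.02% of the 32817 windows of all genes and a GC box in 32.7%. Among the other matched genes, an E-box was also found in a window of Slc12a7 and in that of Slc12a9. The Wnk1 window carried 4 GC boxes between 75 and 50 bases before the start. The Wnk3 window was poor in G and C, at 30.4% against a median of 52.4% over all windows, and held TATAAA 33 bases before the start, a motif found in 12.4% of windows. The Stk39 window lay at the other end, at 82.4% G and C with 43 CpG pairs, against a median of 6 pairs. The Stk39 window and the Slc12a7 windows lie inside the annotated span of their gene, and exon bases were not taken out of them. No member's window matched the Egr motif, which 4.70% of windows did. These matches describe the letters only, and no binding or methylation was measured here.

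Depth, estimated from the steps between low values, came to about 3690000, 4110000 and 5890000 fragments for libraries 1, 2 and 3. Levels are in FPKM, fragments scaled to transcript length and library size, and are given ± SD over n = 3 libraries. Marker lists were used to describe the cell types present. All 5 neuron, 5 astrocyte and 5 oligodendrocyte genes were at 1 FPKM or more, led by Snap25, Slc1a3 and Mbp. No gene of the 9 marker lists was at 0 in every library. These lists hold genes of general cell types only, so they cannot tell hippocampus from another brain region. The choroid plexus list was the one whose sum differed most between libraries, at 399, 1086 and 1314 FPKM, led by the transthyretin gene Ttr at 392, 1071 and 1296 FPKM, and 6 of its 6 genes were lowest in library 1. The other 8 lists differed by at most 1.36-fold between libraries. In a mixed tissue, fewer cells of a type and less RNA per cell cannot be told apart.

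Slc12a5, the KCC2 gene of neurons, was the most abundant of the 9 transcripts. It lies on the plus strand of chromosome 2 (164960802 to 164999731, GRCm38), and its longest protein-coding transcript has 26 exons and 6028 bases. Its level was 42.2, 37.3 and 46.3 FPKM in libraries 1, 2 and 3, a mean of 41.9 ± 4.54 FPKM. Library 3 was the highest and library 2 the lowest, a 1.24-fold range. By mean level it took rank 2389 of the 19046 genes with any signal, the 87.5th percentile. These values rested on about 895, 885 and 1579 fragments.

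Slc12a2, the NKCC1 gene, lay well below. It is on the plus strand of chromosome 18 (57878678 to 57946821), and its level was 6.09, 5.20 and 6.70 FPKM, a mean of 6.00 ± 0.754 FPKM. The 3 libraries kept the order seen for Slc12a5, library 2 lowest and library 3 highest. The ratio of Slc12a5 to Slc12a2 was 6.93, 7.17 and 6.91 (SD 0.142). The Slc12a2 values rested on about 140, 134 and 248 fragments, with a counting error of 7.81%. The ratios differed by less than this error, so their closeness cannot be read as a fixed ratio. On the log2(FPKM + 1) scale, Slc12a2 minus Slc12a5 was -2.62 log2 units (SE 0.139, 95% interval -2.93 to -2.30; limma adjusted p = 2.91e-06), with Slc12a2 lower in 3 of 3 libraries. As background, NKCC1 is also abundant in choroid plexus. The summed choroid plexus markers were lowest in library 1, whereas Slc12a2 was lowest in library 2, and the part of these cells in its level was not tested.

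Slc12a4, the KCC1 gene found in many tissues, was the second of the cotransporter genes among the 9. It is on the minus strand of chromosome 8 (105943590 to 105966097), and its values were 10.4, 6.90 and 8.66 FPKM, with a mean of 8.65 ± 1.75 FPKM. Library 1 was 1.51 times library 2, so this gene varied more than Slc12a5 or Slc12a2. The span of the gene Gm16156 overlaps an exon of Slc12a4, and whether exons of both overlap, or on which strand Gm16156 lies, was not looked at. Whether counting used strand is not given either, so some reads may be assigned to the wrong gene of the pair.

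Slc12a7, the KCC4 gene, was close to the limit of what this depth resolves. Its values were 1.21, 0.46 and 1.09 FPKM on about 22, 9 and 31 fragments, with a mean of 0.92 ± 0.403 FPKM, and library 2 was below the others. With a mean under 1 FPKM it was left out of the tests. For its longest protein-coding transcript, 3 fragments corresponded to 0.167, 0.149 and 0.104 FPKM, so the gene was above that level in all 3 libraries. When no filter on low values was set, its difference from Slc12a5 was -4.50 log2 units (SE 0.156; limma adjusted p = 2.21e-09), lower in 3 of 3 libraries. The 1 added to FPKM is about as large as the Slc12a7 values, so it shrinks this difference and its spread between libraries. In FPKM alone, Slc12a5 was 34.9, 81.0 and 42.5 times Slc12a7 in libraries 1, 2 and 3.

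Slc12a9, a family member whose transport role is less settled, stood at 5.69, 6.24 and 7.04 FPKM, a mean of 6.32 ± 0.679 FPKM. Its range overlapped those of Slc12a2 and Slc12a4. It was above Slc12a2 in 2 of 3 libraries, and the mean difference was 0.07 log2 units (SE 0.146, 95% interval -0.27 to 0.40; limma adjusted p = 1 against a null of up to 2-fold). These values did not separate Slc12a9 from the NKCC1 gene in either direction.

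**Figure D1:**
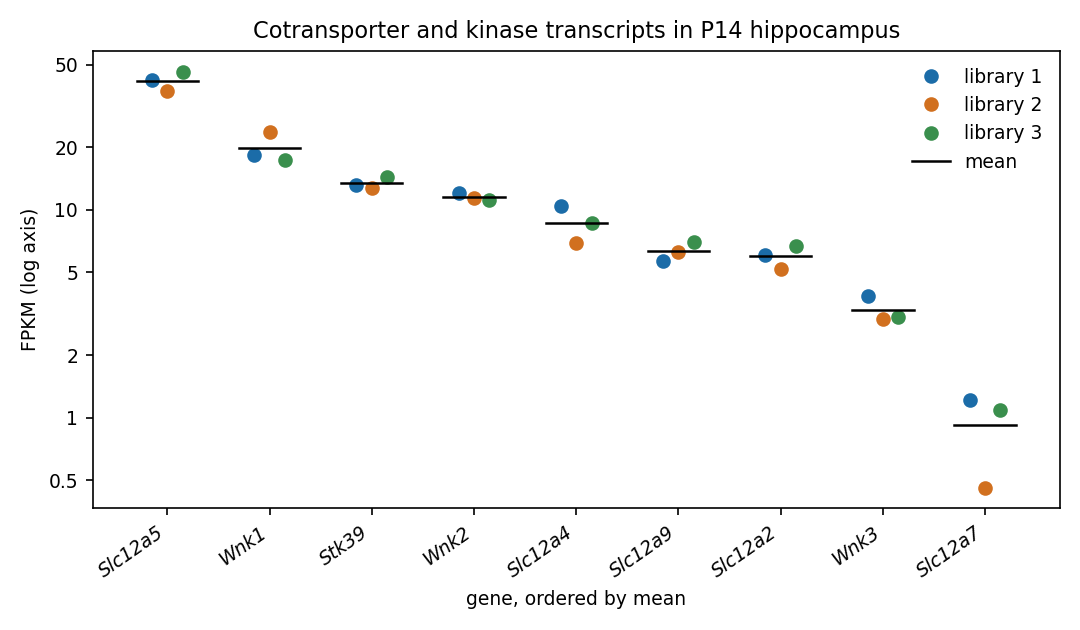
FPKM on a log axis of the 9 genes, ordered by mean; points are libraries 1, 2 and 3 and the bar is their mean. Slc12a5 lies between 37.3 and 46.3 FPKM, above every value of the other 8 genes, and Slc12a7 between 0.46 and 1.21 FPKM.

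Among the 5 cotransporter genes, Slc12a5 made up most of the transcripts. It carried 64.3%, 66.5% and 66.4% of their summed FPKM in libraries 1, 2 and 3, a mean of 65.7% ± 1.19. Slc12a4 held 13.5% ± 2.01, Slc12a9 9.96% ± 1.23, Slc12a2 9.39% ± 0.182 and Slc12a7 1.41% ± 0.529. The share of Slc12a2 lay between 9.27% and 9.60%. Outside the 9 genes, Slc12a8 was at 0.15, 0.94 and 0.47 FPKM. The kidney cotransporter genes were near or at the bottom: Slc12a1 (NKCC2) was listed at 0, 0.05 and 0.04 FPKM and Slc12a3 (NCC) at 0 in all 3 libraries.

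The K-Cl cotransporter genes Slc12a4, Slc12a5 and Slc12a7 together stood at 53.8, 44.6 and 56.1 FPKM. Their sum was 8.83, 8.58 and 8.37 times Slc12a2 in the 3 libraries, a mean of 8.60 ± 0.232. Slc12a5 supplied 81.5% ± 2.71 of it, Slc12a4 16.7% ± 2.23 and Slc12a7 1.74% ± 0.634. Without Slc12a5, the sum of Slc12a4 and Slc12a7 was 1.90, 1.42 and 1.46 times Slc12a2, above it in each library and highest in library 1. These are ratios of transcript levels in mixed tissue and say nothing of protein or of transport in any cell.

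**Figure D2:**
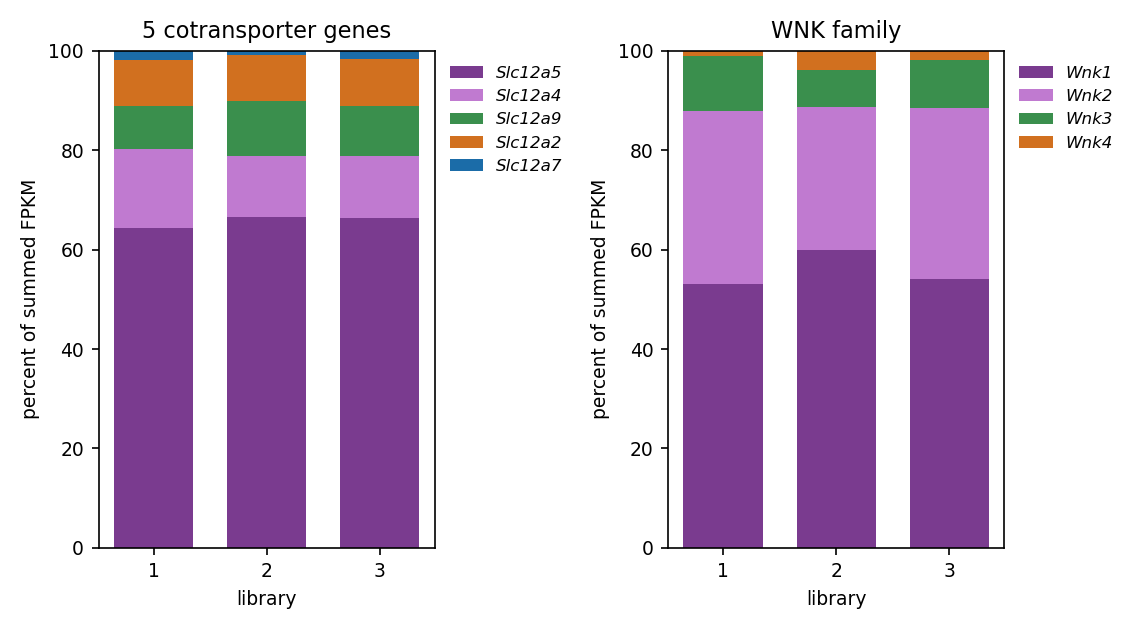
Percent of summed FPKM by gene in each library, for the 5 cotransporter genes (left) and the WNK family (right). Slc12a5 holds 64.3% to 66.5% of the cotransporter sum and Wnk1 53.0% to 59.8% of the WNK sum.

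Among the kinases, Wnk1 was the highest. It lies on the minus strand of chromosome 6 (119923969 to 120038672) and has 26 annotated transcripts, of which 15 are protein-coding, with lengths from 181 to 11330 bases. Its level was 18.3, 23.6 and 17.4 FPKM, a mean of 19.8 ± 3.36 FPKM. Library 2 was 1.36 times library 3, the reverse of the pattern of Slc12a5, whose lowest value was in library 2. FPKM divides by a transcript length, and which of these lengths was used is not given in the sources used here, so the level of Wnk1 depends on that choice more than that of a gene with 1 coding transcript. Slc12a5, with 4 coding transcripts of 1202 to 6028 bases, also depends on it, as do Slc12a4, Slc12a9, Wnk2 and Wnk3. Slc12a2 has 1 coding transcript. The ratios and shares given for these genes carry the same limit.

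Wnk2, a WNK gene of neurons and brain, was at 12.03, 11.37 and 11.10 FPKM, a mean of 11.5 ± 0.478 FPKM and the narrowest relative range of the 9 genes, 1.08-fold. Wnk3 (chromosome X) followed at 3.84, 2.97 and 3.05 FPKM, a mean of 3.29 ± 0.481 FPKM. The span of the gene A230072E10Rik overlaps an exon of Wnk3, so the Wnk3 value carries the same uncertainty as that of Slc12a4. Wnk4, the WNK gene best known from kidney and not among the 9, was at 0.38, 1.50 and 0.63 FPKM on about 5, 24 and 14 fragments, and Gm11615 overlaps an exon of it, so its value and its share are uncertain too. Of the summed WNK FPKM, Wnk1 made up 55.6% ± 3.69, Wnk2 32.7% ± 3.37, Wnk3 9.37% ± 1.79 and Wnk4 2.29% ± 1.38.

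Stk39, which encodes SPAK, was the second kinase gene, at 13.2, 12.7 and 14.4 FPKM and a mean of 13.4 ± 0.832 FPKM. Library 3 was highest and library 2 lowest, the order also seen for Slc12a5 and Slc12a2. Oxsr1, which encodes the related kinase OSR1, was at 6.76, 5.74 and 6.76 FPKM, and Stk39 was 2.10 ± 0.134 times that level, higher in each library. Slc22a14 overlaps an exon of Oxsr1, so the Oxsr1 value and this ratio are uncertain in the same way. Wnk1 was 1.39, 1.85 and 1.21 times Stk39.

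The order of the 9 genes by mean was Slc12a5, Wnk1, Stk39, Wnk2, Slc12a4, Slc12a9, Slc12a2, Wnk3 and Slc12a7. Of the 36 pairs of members, 35 had the same order in all 3 libraries, the exception being Slc12a9 and Slc12a2. The ranges of neighbours overlapped for Slc12a4 and Slc12a9 and for Slc12a9 and Slc12a2, and not for the other 6 neighbouring pairs. Of those 6, Stk39 and Wnk2 lay closest, with a ratio of 1.17 ± 0.107. Against the whole transcriptome, the 8 genes below Slc12a5 spread from the 77.0th percentile (Wnk1) through the 54.9th (Slc12a2) to the 29.0th (Slc12a7).

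**Figure D3:**
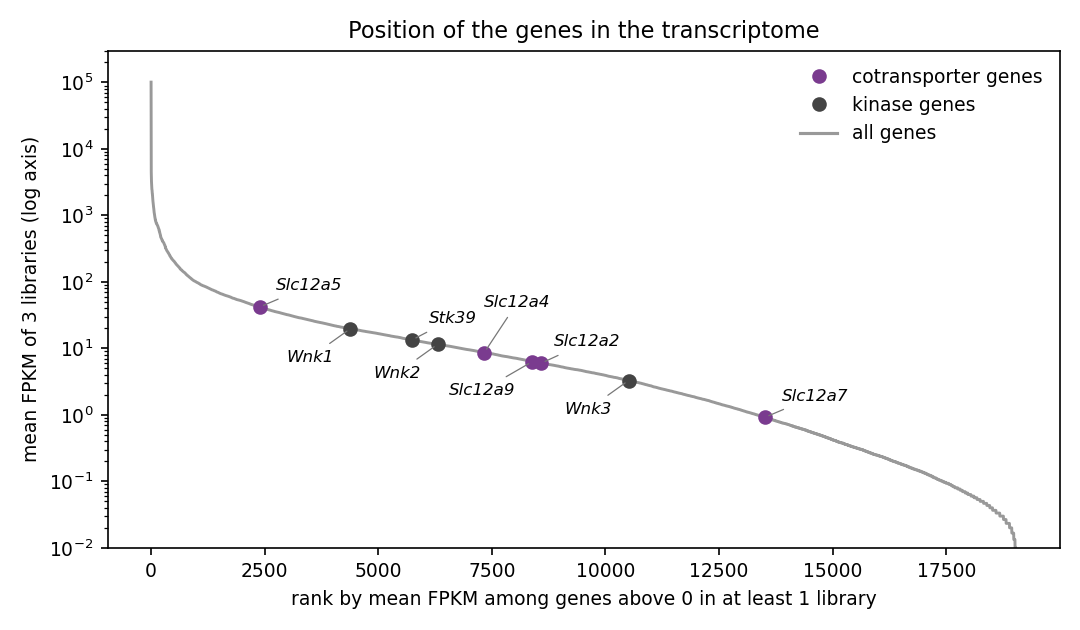
Mean FPKM of 3 libraries (log axis) against rank for the 19046 genes with any signal (grey line), with the cotransporter and kinase genes marked. Slc12a5 is at rank 2389, Wnk1 at 4385, Slc12a2 at 8589 and Slc12a7 at 13511.

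With 1 group, the comparisons the design allows are between genes inside the same libraries. Genes averaging 1 FPKM or more were each compared with Slc12a5, with Slc12a2 and with Wnk1 by the per-library difference in log2(FPKM + 1), tested with limma for exceeding 1 log2 unit in either direction and adjusted by Benjamini-Hochberg over all 13336 genes. That null, 2-fold in FPKM + 1, was used because FPKM of different genes also differ through length, GC content and mappability. For genes at low levels, the added 1 makes the difference smaller than that of FPKM alone. Each difference contains the 3 values of the reference gene, so the calls against 1 reference are not independent of each other.

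Against Slc12a5, 6 of the 7 members tested were lower by more than 2-fold: Stk39, Wnk2, Slc12a4, Slc12a9, Slc12a2 and Wnk3. Over all genes 61.7% were lower. The median difference of the 7 was -2.16 log2 units, against -1.92 over all genes. Among the 6 called, Wnk3 was farthest, at -3.32 log2 units (SE 0.15; limma adjusted p = 5.31e-07), and Stk39 nearest, at -1.57 (SE 0.140; limma adjusted p = 0.00272). Wnk1 differed by -1.05 log2 units on average and was not called (SE 0.174, 95% interval -1.45 to -0.66; limma adjusted p = 0.502), although it was the lower of the pair in 3 of 3 libraries. No member was higher than Slc12a5 by limma, at an unadjusted p under 0.05 or without sharing the spread across genes (0 in each case), and 6.92% of all genes were. Every other member lay below Slc12a5 in each library, so none could be called higher.

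Against Slc12a2, 2 of the 7 members tested were higher by more than 2-fold, Slc12a5 and Wnk1, and 36.6% of all genes were. Wnk1 exceeded Slc12a2 by a mean of 1.56 log2 units (SE 0.176; limma adjusted p = 0.0154) and was higher in 3 of 3 libraries. That call rested on library 2, where Wnk1 was highest and Slc12a2 lowest: without it the difference was 1.35 (adjusted p = 0.0735). It was also lost when each gene's own spread was used (adjusted p = 0.151). The difference from Slc12a2 was 1.05 log2 units for Stk39 (95% interval 0.73 to 1.37), 0.84 for Wnk2, 0.45 for Slc12a4 and -0.71 for Wnk3. Each had 1 sign in 3 of 3 libraries, and none of these passed the null of 2-fold in FPKM + 1. In FPKM without the added 1, Stk39 was 2.17, 2.45 and 2.14 times Slc12a2 in libraries 1, 2 and 3. Of the 7 members tested, the number lower than Slc12a2 was 0 by limma, 0 at an unadjusted p under 0.05 and 0 with each gene's own spread. Only Wnk3 of the 7 lay below Slc12a2 by mean, so no other could be called lower. Of all 13336 genes, 8.16% were lower by limma, 1336 genes at an unadjusted p under 0.05, and 1.97% with own spreads. With no filter on low values, Slc12a7 was also tested and was lower than Slc12a2, at -1.88 log2 units (SE 0.157; limma adjusted p = 0.000238; lower in 3 of 3 libraries), and lower than Wnk1, at -3.45.

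Against Wnk1, 3 of the 7 members tested were lower by more than 2-fold, namely Slc12a9, Slc12a2 and Wnk3, and 38.2% of all genes were. Wnk3 minus Wnk1 was -2.27 log2 units (SE 0.234; limma adjusted p = 9.42e-08), and was still called with its own spread alone (adjusted p = 0.0415). The difference was -1.56 for Slc12a2 (limma adjusted p = 0.0163) and -1.50 for Slc12a9 (0.0333), lower in 3 of 3 libraries each. Both calls were lost without library 2 (adjusted p 0.0517 and 0.0653) and with each gene's own spread (0.128 and 0.104), and that of Slc12a9 also without library 1 (0.120). Wnk2 differed from Wnk1 by -0.72 log2 units (95% interval -1.18 to -0.26) and Stk39 by -0.51 (-0.97 to -0.06). Both were lower in 3 of 3 libraries and not shown to differ by more than 2-fold. Against Wnk1, limma gave every gene the same SE of 0.234, so these intervals do not show each gene's own spread. The number higher than Wnk1 was 0 by limma, 0 at an unadjusted p under 0.05 and 0 with own spreads. Only Slc12a5 lay above Wnk1, so no other member could be called higher. Of all 13336 genes, 13.8% were higher by limma, 1946 genes at an unadjusted p under 0.05, and 10.8% with own spreads.

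**Figure D4:**
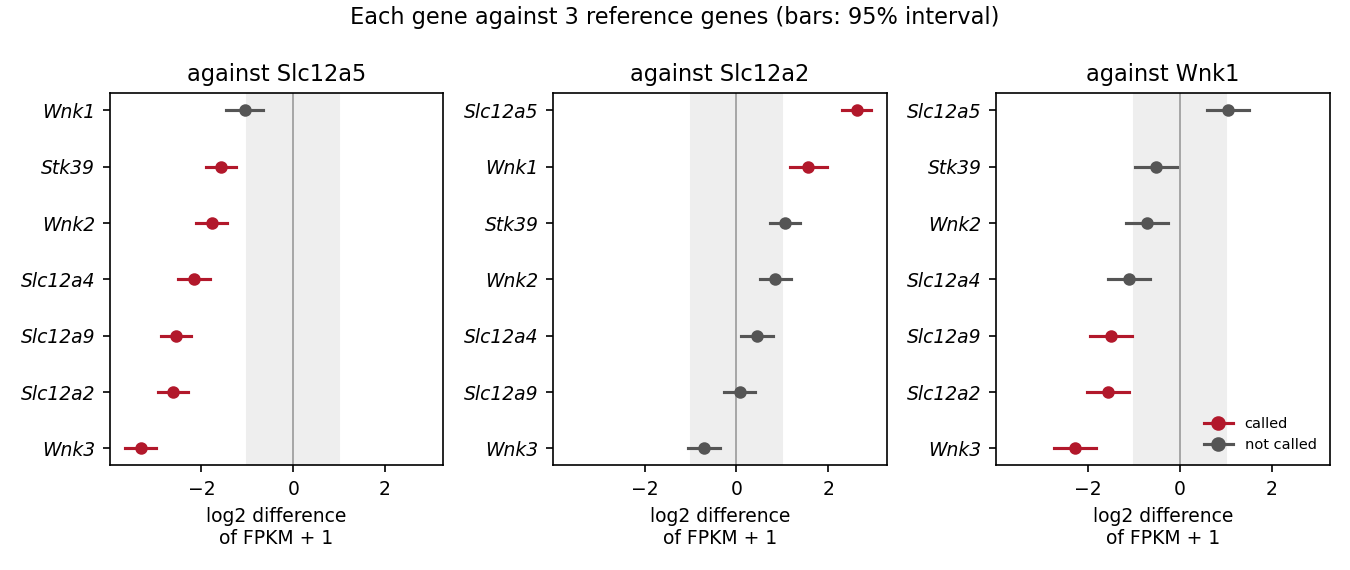
Difference in log2(FPKM + 1) between each member tested and Slc12a5 (left), Slc12a2 (middle) or Wnk1 (right), with 95% intervals from limma; the grey band is the null of 1 log2 unit either way and red marks calls at adjusted p under 0.05. Called members number 6, 2 and 3 from left to right. Against Wnk1 every gene was given the same SE, so all intervals on the right have 1 width.

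The members differed in how much they varied between libraries. Wnk2 had a coefficient of variation of 4.16% and Stk39 of 6.19%, and 7.28% and 16.3% of the genes with means within 2-fold of theirs varied less. For both, the spread was below the counting error of the estimated fragments, 5.43% and 7.18%. Wnk1 varied by 17.0% and Slc12a4 by 20.2%, against counting errors of 3.23% and 8.65%, and 74.1% and 69.1% of genes of like level varied less. Slc12a5 varied by 10.8%, near the median of 9.73% for its level. Slc12a7 had the widest spread, 43.8%, on the fewest fragments, with a counting error of 24.1%.

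Library 2 held the lowest value of 6 of the 9 members and the highest value of 1, Wnk1. Over all genes tested, 33.2% had their lowest value in library 2 and 32.6% their highest. Libraries 1 and 3 each held the highest value of 4 members. With 3 libraries of 1 group there was no condition to which these differences could be tied, and 3 points were too few for a correlation between genes.

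**Figure D5:**
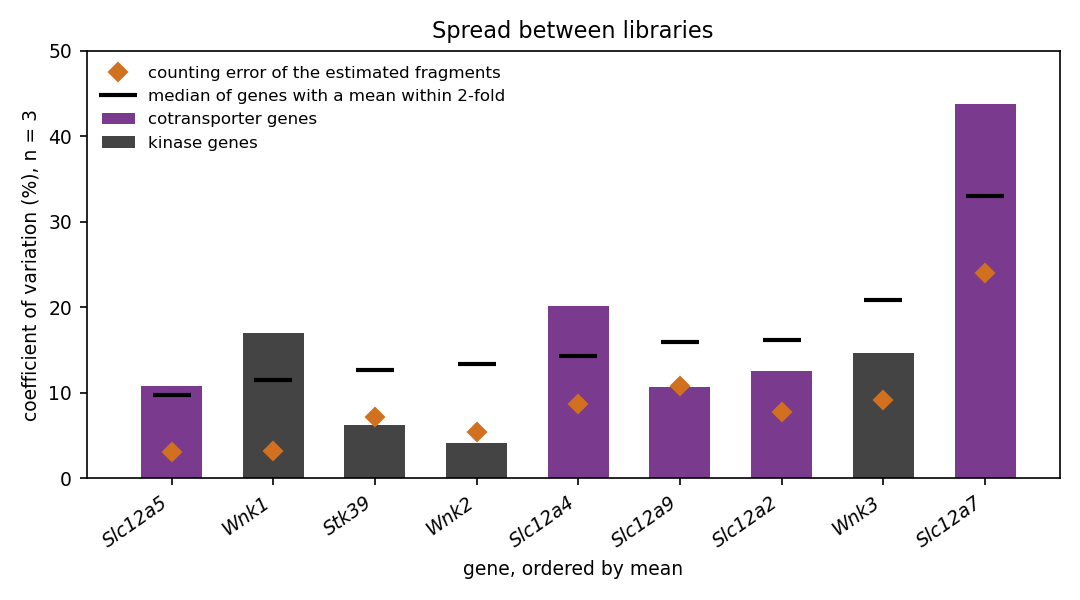
Coefficient of variation over 3 libraries (bars, percent) of each gene, with the counting error of its estimated fragments (diamonds) and the median of genes whose mean lies within 2-fold (black lines). Wnk2 at 4.16% and Stk39 at 6.19% lie under both marks, and Wnk1 at 17.0% and Slc12a4 at 20.2% above both.

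Some genes that act with the WNK and SPAK kinases were at higher levels than Wnk1 and others at lower ones. In a list of 10 partner and turnover genes, 9 reached 1 FPKM, Wnk4 being the other. Its 3 highest genes belong to the ubiquitin ligase that turns WNK kinases over: Rbx1, a RING subunit gene, at 137 ± 6.46 FPKM, Klhl2, a substrate adaptor gene, at 69.9 ± 2.98 FPKM, and Cul3, the scaffold gene, at 48.9 ± 11.7 FPKM. Against Wnk1, 2 of the 9 were higher by more than 2-fold, Rbx1 by 2.74 and Klhl2 by 1.78 log2 units, where 13.8% of all genes were higher; the call of Klhl2 was lost with its own spread (adjusted p = 0.0529). Klhl3, another substrate adaptor gene of that ligase, was the lowest of the 9 at 5.27 ± 0.926 FPKM and is named after its values were seen. Klhl3 and Oxsr1 were the 2 genes called lower than Wnk1, by differences of -1.73 and -1.48 log2 units, and 38.2% of all genes were lower. The call of Oxsr1 (adjusted p = 0.0405) was lost without library 1 (0.0747), without library 2 (0.0782) and with its own spread (0.138). The median difference of the list from Wnk1 was 0.64 log2 units, against -0.87 over all genes.

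A list of 12 partners and regulators of KCC2 was led by Ckb, the brain creatine kinase gene, at 792 ± 65.5 FPKM, and by the protein phosphatase 1 catalytic subunit genes Ppp1ca at 220 ± 15.2 and Ppp1cc at 107 ± 7.83 FPKM. These were the 3 of 11 tested genes called higher than Slc12a5, and 4 were lower. Over all genes 6.92% were higher and 61.7% lower. Ckb stood 4.21 log2 units above Slc12a5 (SE 0.146) and Ppp1ca 2.37 (SE 0.142). The call of Ppp1cc, 1.34 log2 units (adjusted p = 0.0339), was lost without library 1 (0.222) or library 2 (0.0766). The 4 lower genes, named after their values were seen, were Egr4, Bdnf, Capn1 and Prkcd. With each gene's own spread the number lower was 3. The repressor gene Rest was at 0.88, 0.95 and 1.14 FPKM, just under the filter.

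Among 14 genes of bicarbonate transport, carbonic anhydrases and chloride channels, which bear on the same chloride and bicarbonate gradients, 13 were tested. Car2, a carbonic anhydrase gene, was highest at 106 ± 21.7 FPKM, followed by the chloride/proton exchanger gene Clcn3 at 42.2 ± 3.37 FPKM and the sodium bicarbonate cotransporter gene Slc4a4 at 39.1 ± 1.08 FPKM. Clcn3 and Slc4a4 lay beside Slc12a5, at 0.01 (SE 0.151) and -0.09 (SE 0.147) log2 units, and were not called. Of the 13 genes, 7 were lower than Slc12a5, where 61.7% of all genes were. The number higher was 0 by limma and 0 with own spreads, and 1, Car2, at an unadjusted p under 0.05. Lrrc8e, a subunit gene of the volume-regulated anion channel, was listed at 0 in all 3 libraries and is named here after its values were seen.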

How the data were processed

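Total RNA of 3 hippocampus libraries was sequenced on an Illumina instrument. The authors deposited 1 table of FPKM, each library being a column, per the file headers. The number in a column's name gave its sample title. Bowtie2 and GRCm38 (mm10) are named in the submitters' processing notes; no source used here gives versions, counting tool, annotation or use of strand. FPKM were used as deposited. Of 39377 rows, 20331 were at 0 in every library and 13337 averaged 1 FPKM or more.

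Differences of log2(FPKM + 1) to a reference gene were tested with limma 3.58.1 (treat, R 4.3.3) and called at adjusted p under 0.05. The code was run on simulated data in which the noise of each gene was independent. That simulation therefore could not test the effect of a shared reference. Because each difference shares the reference's values, limma's sharing of spread across genes can make p-values too small, most of all against Wnk1; a fit with each gene's own spread was added after the data were seen. No paired analysis was possible because there is 1 group.

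Fragments were estimated from low FPKM of genes with 1 transcript: 93.4%, 91.9% and 91.0% of these values came within 0.15 of a whole number at the chosen depth, where evenly spread values give 30%, and both depth and length offset were chosen on these values. Members' fragments assume the longest protein-coding GENCODE M21 transcript and and their counting errors leave out duplicate reads, which cannot be recognised without molecular identifiers. Python 3.11.15, numpy 2.4.6, pandas 2.3.3 and matplotlib 3.10.9 were used.

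The members and lists were chosen with earlier results of these data known. The text names every member, Slc12a1, Slc12a3, Slc12a8, Wnk4, Oxsr1, the 3 highest genes of each other pathway list and the highest gene of marker lists, and says where another gene was named after its values were seen. Alternatives were other pseudocounts (0.1 and 0.5), filters (none, and 5 FPKM), a null of no difference, rescaled FPKM and leaving out each library. Sums and shares of cotransporter genes run over the members only, a choice made after the data were seen, and 1 item is not reported here.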

Additional observations from a re-analysis of the deposited data

How the results depend on the processing

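The 51 single-gene differences were recomputed under the alternatives, giving 507 values, of which 477 kept direction and side of the threshold, 13 lost a call, 14 gained one (all with a null of no difference) and 3 changed sign. Differences between reference genes are counted once in each direction. The other filters, the other null and the own spreads leave each difference itself unchanged, so its direction could not change there. The sign changes were of differences near 0: Slc12a9 against Slc12a2 without replicate 2 (-0.01 log2 units; range when a replicate was left out -0.011 to 0.143), and Clcn3 against Slc12a5 without replicate 1 or 2 (range -0.057 to 0.132; -0.04 without replicate 1). The number of genes lower than Slc12a5, Slc12a2 and Wnk1 (8231, 1088 and 5098) was 13970, 6933 and 10880 with no filter and 4145, 0 and 923 with a filter at 5 FPKM, which by construction add or remove low genes; for the 0 by limma, the number at an unadjusted p under 0.05 was also 0. With a null of no difference, 1909 genes were higher than Slc12a5, 3640 lower and 7467 higher than Slc12a2, and 7734 lower and 3368 higher than Wnk1, against 923, 4876 and 1844 higher with the 2-fold null. Genes lower than Slc12a2 numbered 1843 with FPKM rescaled to one total per library, 263 with each gene's own spread, and 596 to 1022 when a replicate was left out (631 without replicate 1, 596 without replicate 3); genes lower than Wnk1 numbered 3148 with own spreads. In fragments in place of transcripts, the share of Slc12a5 was 72.1%, that of Wnk1 66.6% and the K-Cl sum 7.44 times Slc12a2. No paired analysis was possible because there is 1 group. Depth limits Slc12a7, Slc12a8 and Wnk4, which rested on 31 fragments or fewer in each library.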

Other observations

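The distance between Slc12a5 and Wnk1 depends on whether transcripts or fragments are counted. Per transcript length, Slc12a5 was 2.30, 1.58 and 2.67 times Wnk1 in libraries 1, 2 and 3. As estimated fragments, with transcripts of 6028 and 11330 bases assumed, Slc12a5 held about 895, 885 and 1579 and Wnk1 about 748, 1075 and 1133, so that Wnk1 was the higher of the pair in library 2.

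Cab39 and Cab39l, which encode the MO25 scaffold proteins that activate SPAK and OSR1, were named after their values were seen. Cab39 was at 43.1, 43.1 and 40.0 FPKM and Cab39l at 16.8, 12.7 and 13.7 FPKM, and their ratio was 2.95 ± 0.410 (SD, n = 3). Cab39 was 3.14 ± 0.316 times Stk39 and lay 0.01 log2 units from Slc12a5 (SE 0.15).

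Wnk4 and Slc12a8, the latter a distant family member, both had their highest value in library 2, at 1.50 and 0.94 FPKM, and their lowest in library 1, at 0.38 and 0.15 FPKM. The choroid plexus marker sum was also lowest in library 1 but highest in library 3, and whether these cells contributed was not tested. In library 1 the values of Wnk4 and Slc12a8 rested on about 5 and 2 fragments.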
